A study of Drosophila melanogaster with 3 samples.

Results

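The 290 nuclear transfer RNA (tRNA) genes of Drosophila melanogaster on 6 chromosome arms (X, 4, and both arms of 2 and 3) were examined for peaks of the zinc finger protein az2. They were all genes of the tRNA class in the Ensembl annotation BDGP6.54, among 23973 genes on these arms, and were chosen by that class and not by any measured value. The data were ChIP-seq, which sequences the DNA that is pulled down with a protein, from whole embryos 0 to 16 h old of pooled sex. All embryos carried a stable az2 transgene with green fluorescent protein (GFP) at the C-terminus, and the pull-down used an antibody against GFP. There was 1 group of 3 biological replicates, so no conditions were compared; embryos without the tagged protein were not analysed here.

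A tRNA carries an amino acid to the ribosome, and its anticodon reads the codon. tRNA genes are transcribed by RNA polymerase III (Pol III) from promoter elements inside the gene, the A box and the B box. TFIIIC binds these boxes and places TFIIIB upstream of the start, and TFIIIB recruits the polymerase, which stops at a run of T after the gene. The fly has many identical copies of most tRNA genes, often in clusters, and in yeast and mammals tRNA genes and TFIIIC sites are also known as chromatin boundaries.

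The genes lay on 5 arms, and none lay on 4. They were 71 to 186 bp long, with a median of 73 bp, and belonged to 22 isotype classes and 44 anticodons. The selenocysteine class and the initiator methionine class (iMet) were counted as classes of their own. There were 95 distinct gene sequences. Sequences were compared over the whole annotated gene, so a gene found once can still share part of its sequence with another. Of the 290 genes, 52 had a sequence found once and 238 had an identical copy elsewhere, with up to 13 identical genes in the Gly-GCC-1-1 family. Reads inside such copies may not have a single place in the genome, and how the authors placed them is not given in the sources used here. Joined across gaps of at most 5000 bp, the genes formed 144 loci, of which 76 held a single gene and 10 held 5 or more.

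Few tRNA genes lay beside a reproducible peak. The irreproducible discovery rate (IDR), which keeps peaks whose ranks repeat between replicates, left 5786 of the 27145 peaks of the pooled reads, and a summit is the single base where a peak is highest. An IDR summit lay within 500 bp of 15 of the 290 tRNA genes (5.17%, exact binomial 95% interval 2.92 to 8.39). For protein-coding genes, measured from any annotated transcription start site (TSS), the share was 22.6%. A stretch of 73 bp placed at every base of the arms in turn had an IDR summit within 500 bp in 4.34% of places, which lies inside the interval of the tRNA genes. Within 1000 bp the count was 28 tRNA genes (9.66%, 6.51 to 13.7), beside 25.9% of protein-coding genes and 7.93% of such stretches. Intervals cover counting error only, and since neighbouring tRNA genes can share a peak they are too narrow. The median distance from a tRNA gene to the nearest IDR summit was 9158.5 bp.

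The 15 genes were served by 13 distinct peaks in 13 loci. The sequences shown are those of tRNA genes whose peak had its summit in or beside the gene, read from the RefSeq dm6 genome on the strand of the tRNA gene, 5′ to 3′. For Gly-TCC-1-2 (FBgn0051491), the single tRNA gene of the series with an IDR summit inside it, the window 3R:7130937-7131028 on the minus strand holds the gene in capitals with 10 bases to either side, and the summit is base 68 of 92. The gene contains the B box letters GTTCGANNC that were searched for.
tRNA:Gly-TCC-1-2 gene: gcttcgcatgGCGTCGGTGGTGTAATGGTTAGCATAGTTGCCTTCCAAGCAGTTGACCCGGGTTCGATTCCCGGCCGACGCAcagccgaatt
For Asp-GTC-1-5 (FBgn0051603), the window 2L:8541751-8542037 on the plus strand runs from the gene, again in capitals, past the summit at base 277 of 287. It shows how far from the gene a typical summit lay, in DNA outside the transcribed unit.
tRNA:Asp-GTC-1-5 gene to summit: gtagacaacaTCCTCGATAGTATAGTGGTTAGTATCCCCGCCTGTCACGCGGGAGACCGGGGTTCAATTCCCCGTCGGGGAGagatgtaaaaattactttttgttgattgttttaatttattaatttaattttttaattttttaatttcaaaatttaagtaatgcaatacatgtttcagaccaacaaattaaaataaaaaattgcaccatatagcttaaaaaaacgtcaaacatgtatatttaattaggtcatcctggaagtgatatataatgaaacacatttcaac
For 4 genes whose whole sequence occurs once among the tRNA genes, 101 bases are given with the summit at base 51. Capitals mark a match to one of the fixed motifs other than TTTTT, which is not marked: GAGAG at Leu-TAA-2-1 and CGATA at Lys-TTT-1-1. The windows are 3R:8669326-8669426 on the minus strand for Tyr-GTA-1-8, X:3427683-3427783 on the minus strand for Gln-TTG-2-1, 3R:24112709-24112809 on the plus strand for Leu-TAA-2-1 and 2L:8290959-8291059 on the plus strand for Lys-TTT-1-1.
tRNA:Tyr-GTA-1-8 summit: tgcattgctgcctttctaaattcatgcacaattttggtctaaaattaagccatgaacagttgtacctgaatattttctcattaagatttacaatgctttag
tRNA:Gln-TTG-2-1 summit: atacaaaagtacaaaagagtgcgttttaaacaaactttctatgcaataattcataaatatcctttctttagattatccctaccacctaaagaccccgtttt
tRNA:Leu-TAA-2-1 summit: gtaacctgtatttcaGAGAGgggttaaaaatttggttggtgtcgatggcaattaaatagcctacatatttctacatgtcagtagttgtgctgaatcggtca
tRNA:Lys-TTT-1-1 summit: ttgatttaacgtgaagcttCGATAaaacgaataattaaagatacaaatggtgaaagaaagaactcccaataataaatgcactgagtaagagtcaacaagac

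At 8 of the 13 peaks the tRNA gene was closer to the summit than any protein-coding TSS. The peaks were chosen for a tRNA gene within 500 bp, and no such share was computed for other positions in these zones. Here and below, the split therefore describes position only. The signal is the authors' enrichment value for a peak, on its own scale in each list, and a rank of 1 is the highest signal of a list. The highest peak near any tRNA gene, at 3R:8669208-8669540, had a pooled signal of 1169 and rank 130, with its summit 202 bp upstream of Tyr-GTA-1-8 (FBgn0012024). Its signal was 299 in replicate 1, 459 in replicate 2 and 403 in replicate 3, and its ranks were 97, 164 and 133. The 3 replicates placed it alike, among the highest peaks of each list. It also lay 242 bp from a TSS of CG8036, so the tRNA gene and that promoter were almost equally near. The gene itself sits inside annotated transcripts of CG8036 and of p (pink), which is known for eye pigment granules.

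The peak near Gln-TTG-2-1 (FBgn0052493) at X:3427601-3427859 lay far from the promoters of protein-coding genes. Its summit lay 210 bp upstream of the tRNA gene inside CG12535, and the nearest protein-coding TSS, of CG14269, was 8074 bp away. The pooled signal was 516 at rank 796, and the replicate signals were 128, 214 and 179 at ranks 713, 816 and 830. This peak too had like ranks in the 3 replicates. The peak near Leu-TAA-2-1 (FBgn0053536) at 3R:24112687-24112840 had a pooled signal of 372, with 112, 146 and 119 in the replicates, and its summit was 205 bp upstream of the gene and 370 bp from a TSS of CG13605.

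The other 5 peaks with the tRNA gene closer had pooled signals of 135 to 232. Near Glu-TTC-1-5 (FBgn0011849) a peak covering 2R:19727118-19727547 reached 232 (74.1, 108 and 77.5 in the replicates) with its summit 127 bp downstream. A protein-coding TSS was 13257 bp away, while the start of the small nucleolar RNA gene snoRNA:185 was 181 bp away. Near Thr-AGT-1-4 (FBgn0051282) a peak covering 3R:16431647-16432076 reached 185 (64.6, 57.5 and 56.3), with the summit 78 bp upstream and 335 bp from a TSS of CG31279. A second IDR peak, of signal 332, lay 768 bp from the same gene and 217 bp from the TSS of Fntb, which encodes a subunit of protein farnesyltransferase. Both peaks were among the highest 5786 of each replicate list.

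The last 3 of these peaks had the lowest pooled signals of the 13, and each fell below rank 5786 in 1 replicate list. Near Ile-AAT-1-8 (FBgn0050509), inside the phospholipid flippase gene ATP8A, the peak at 2R:13438066-13438495 had a pooled signal of 162 and ranks of 15567, 4715 and 3610. Its summit was 342 bp downstream of the tRNA gene and 62 bp from the start of an annotated transposable element copy. At Gly-TCC-1-2 the peak at 3R:7130746-7131175 had a pooled signal of 153, with 34.6, 29.7 and 73.9 in the replicates and ranks of 5678, 11727 and 3502. Near Lys-TTT-1-1 (FBgn0011902), inside the tyrosine kinase gene Btk, the peak at 2L:8290794-8291223 had a pooled signal of 135 at rank 5701 of 5786, and ranks of 6831, 5760 and 5446. The list in which the peak fell below rank 5786 was that of replicate 1 for Ile-AAT-1-8 and Lys-TTT-1-1 and that of replicate 2 for Gly-TCC-1-2. The ranks at Lys-TTT-1-1 were close together, and those at the other 2 were far apart.

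At the other 5 peaks a protein-coding TSS was closer to the summit than the tRNA gene. The share of 5 of 13 (38.5%, 13.9 to 68.4) has a wide interval because the peaks are few. Their pooled signals were 293 to 438, and all 5 were within the highest 5786 peaks of each replicate. The summit 176 bp upstream of His-GTG-1-3 (FBgn0050251) was 74 bp from a TSS of CG8490, with a signal of 438. The summit 195 bp downstream of Asp-GTC-1-5 was 120 bp from a TSS of the axon guidance gene Sema1a, with a signal of 436, and it also lay 404 bp from Asp-GTC-1-4 (FBgn0051604). The summit 417 bp downstream of Val-CAC-2-5 (FBgn0012003) was 410 bp from a TSS of the nicotinamidase gene Naam, with a signal of 387.

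The remaining pair of peaks with a protein-coding TSS closer had lower signals. The summit 234 bp upstream of Trp-CCA-2-2 (FBgn0050227), also within 500 bp of Gly-GCC-1-9 (FBgn0011868), was 53 bp from a TSS of CG30122. Its signal was 309, and its rank was lower in replicate 2, at 4065, than in replicate 1 or 3, at 1029 and 1981. The summit 196 bp downstream of Phe-GAA-1-2 (FBgn0052740) was 37 bp from a TSS of RpL17, which encodes a protein of the large ribosomal subunit. Its signal was 293, and its ranks were 928, 2709 and 3654. The median signal of all 13 peaks was 309, beside 233 for the whole IDR list, and 8 of the 13 were above the latter.

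**Figure D1:**
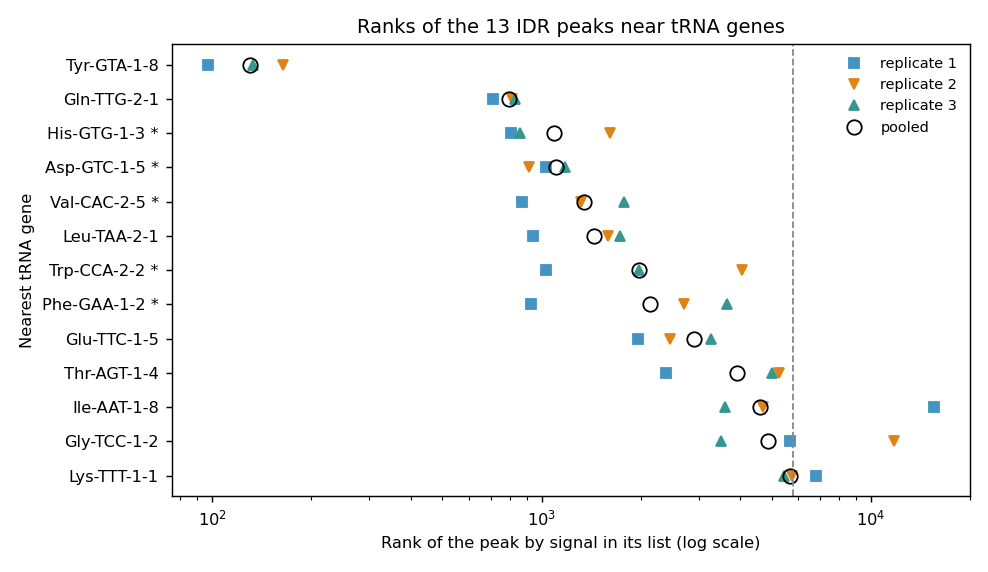
Rank by signal (horizontal log axis) of the 13 IDR peaks within 500 bp of a tRNA gene, each named by its nearest tRNA gene, in the pooled list (open circles) and in the 3 replicate lists (coloured symbols); the dashed line is rank 5786, and an asterisk marks a protein-coding TSS closer than the tRNA gene. The peak at Tyr-GTA-1-8 stayed between ranks 97 and 164, while that at Ile-AAT-1-8 ran from 3610 to 15567.

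Most of the IDR summits near tRNA genes lay beside the gene, where most bases of the 500 bp zones also lie. The genes themselves hold 22026 of the 233330 bases within 500 bp of a tRNA gene. They held 1 IDR summit, 1.05 times the mean density of the arms, and 1 summit is too few to compare the densities. Of the 15 genes, 7 had the nearest IDR summit upstream, 7 downstream and 1 inside. Only 2 genes had an IDR summit within 100 bp (0.690%), beside 1.16% of 73 bp stretches, and 11 had one within 250 bp (3.79%), beside 2.38%. Of the 13 peaks, 9 had the summit 101 to 300 bp from the gene. In bases 201 to 300 bp from a tRNA gene the IDR list held 5 summits, 2.95 times the mean density of the arms, and in bases 1 to 100 bp away it held 1.

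In the pooled relaxed list, which holds weaker peaks and background on purpose as input for the IDR step, tRNA genes stood out more. A summit lay within 500 bp of 165 of the 290 genes (56.9%, 51.0 to 62.7), beside 49.4% of protein-coding genes and 18.6% of 73 bp stretches, a ratio of 3.06 to the stretches. The count depended on the peaks kept. Leaving out replicate 1, 2 or 3 kept only pooled peaks found in both other replicates, and gave 62, 100 or 56 genes. These lists were shorter, with 14271, 15317 and 13317 of the 27145 peaks, and the ratios to the stretches were 2.13, 3.20 and 2.04. With peaks found in all 3 replicate lists the count was 48 (16.6%), at a ratio of 1.99. Within 1000 bp the whole relaxed list gave 206 genes (71.0%, 65.4 to 76.2), beside 56.7% and 30.3%. In the IDR list the ratios to the stretches were 1.19 at 500 bp and 1.22 at 1000 bp. Without the IDR peaks, the relaxed list alone gave 153 genes (52.8%) beside 15.2% of stretches. The median distance from a tRNA gene to a relaxed summit was 396.5 bp, and the highest was 16324 bp. No relaxed summit lay within 500 bp of 125 genes.

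**Figure D2:**
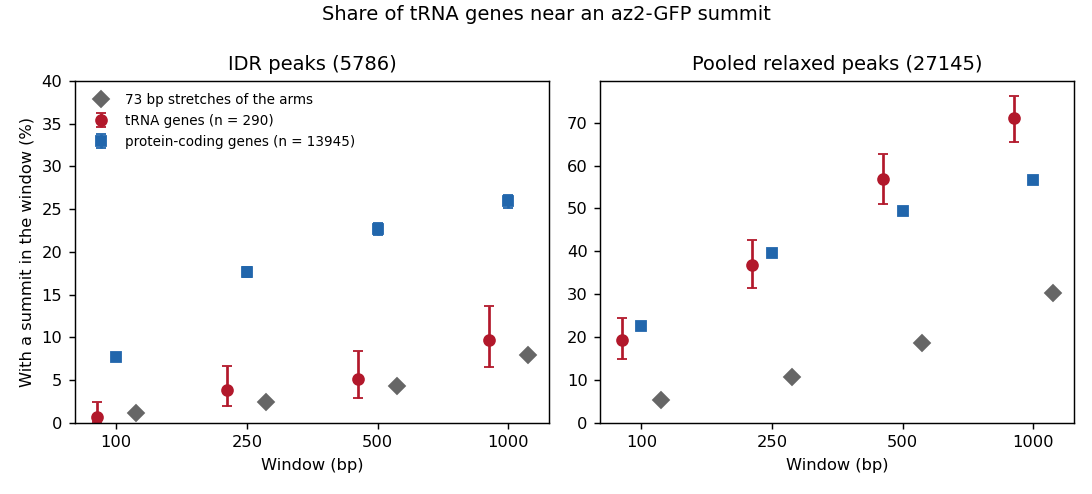
Share of tRNA genes (circles), protein-coding genes by any TSS (squares) and 73 bp stretches of the arms (diamonds) with a summit within 100, 250, 500 or 1000 bp, for the IDR list (left) and the pooled relaxed list (right), whose vertical axes differ; bars are exact binomial 95% intervals. On the left the tRNA genes lie near the stretches, at 5.17% against 4.34% for 500 bp, and on the right they lie well above them, at 56.9% against 18.6%.

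The relaxed summits of the pooled list gathered in the tRNA genes themselves and again 201 to 300 bp away. Inside the genes there were 28 summits in 22026 bases, 6.27 times the mean density of the arms. In the next 100 bp the density was 2.29 times that mean, at 101 to 200 bp it was 2.45 times, at 201 to 300 bp 3.65 times and at 301 to 400 bp 1.34 times. Far from the genes, at 3001 to 5000 bp, it was still 1.31 times. Of the 165 genes, 81 had the nearest relaxed summit upstream, 28 inside and 56 downstream. Summits inside the gene were found in all 3 replicate lists, at 7.09, 2.72 and 5.88 times the mean density, and at 201 to 300 bp the density was 4.21, 2.14 and 3.18 times that mean. In replicate 2 the class from 201 to 300 bp was no maximum, since the density was 2.22 times the mean both at 401 to 500 bp and at 751 to 1000 bp. Some pooled peaks overlap, so their summits are not all separate sites. At Ser-AGA-2-4 the peaks 2L:3172800-3173229 and 2L:3173000-3173429 overlap. Near Trp-CCA-2-2 the weaker peak 2R:18639308-18639737 overlaps the IDR peak 2R:18639108-18639537. What such pairs add to the class from 201 to 300 bp was not tested.

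**Figure D3:**
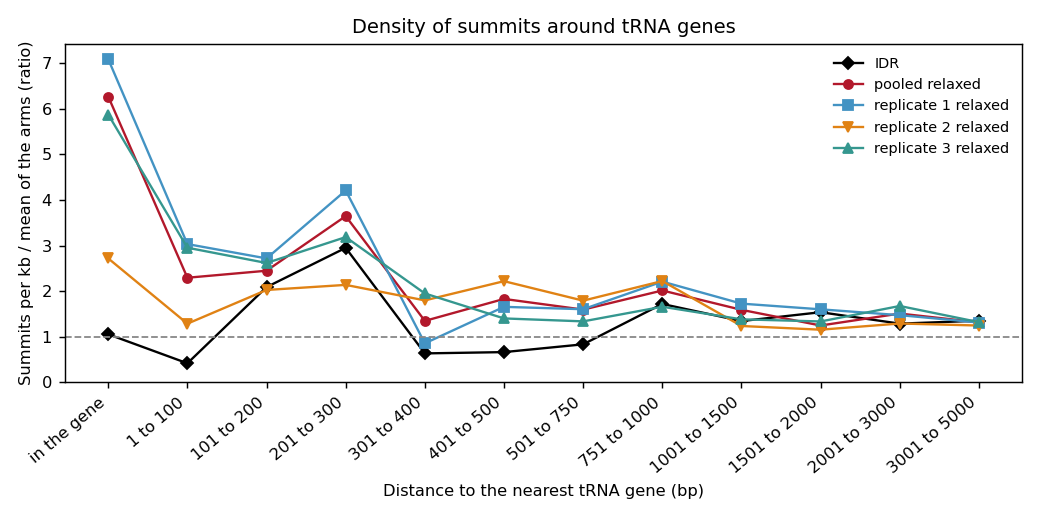
Summits per kb divided by the mean of the arms (vertical axis, ratio) in classes of distance to the nearest tRNA gene (horizontal axis, bp), one line for each of the IDR list, the pooled relaxed list and the 3 replicate lists; the dashed line marks a ratio of 1. The ratio is highest in the gene in the pooled list, at 6.27, with a second maximum of 3.65 at 201 to 300 bp, and in the gene replicate 2, at 2.72, lies below replicates 1 and 3, while the IDR list is at 1.05.

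Replicate 2 had fewer summits at tRNA genes than the other replicates. Its relaxed list had a summit within 500 bp of 83 genes (28.6%, 23.5 to 34.2), replicate 1 of 178 (61.4%) and replicate 3 of 176 (60.7%). The replicate 2 list is shorter, with 22372 peaks against 30000 in each of the others, and its share of protein-coding genes was also lower, at 41.3% against 54.2% and 51.1%. With all lists at their 22372 highest peaks the counts were 142, 83 and 142 genes. Summits inside a tRNA gene then numbered 25, 10 and 28. The ratio to the stretches was 3.19, 1.79 and 3.17 in replicates 1, 2 and 3. Lists of 10000 peaks gave 45, 31 and 69 genes, and lists of 5786 gave 24, 16 and 24. Replicate 2 had the lowest count at each of these lengths, with ratios to the stretches of 2.13, 1.46 and 3.32 in replicates 1, 2 and 3 at 10000 peaks and of 1.91, 1.27 and 1.93 at 5786. Peak lists hold no read counts, and the part of depth in the difference was not tested.

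Most of the weaker peaks, near tRNA genes and in the whole list alike, were not found in all 3 replicates. Of the 290 tRNA genes, 67 had a summit within 500 bp in no replicate list, 68 in 1, 96 in 2 and 59 in all 3 (20.3%, 15.9 to 25.4). The corresponding share in all 3 was 35.0% of protein-coding genes and 8.72% of stretches. Of the 59 genes, 15 were those with an IDR summit and 44 had none. Of the 115 relaxed peaks below the IDR threshold with the summit within 500 bp of a tRNA gene, 28 had the summit in a peak of all 3 replicate lists (24.3%), beside 28.0% of all 21359 peaks below the threshold. They were found in replicate 1 in 70.4%, in replicate 2 in 44.3% and in replicate 3 in 76.5% of cases, beside 60.1%, 56.6% and 71.0% of all peaks below the threshold.

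Peaks near tRNA genes made up a larger share of the weak peaks than of the strong ones. The 500 bp zones around tRNA genes hold 0.174% of the bases of the arms. They held 13 of the 5786 IDR peaks (0.225%, 0.120 to 0.384) and 115 of the 21359 lower ones (0.538%, 0.445 to 0.646). The intervals lie apart, but overlapping peaks are counted separately, which makes the intervals too narrow, and no test was made. By rank the share was 0.522% at 5787 to 10000, 0.620% at 10001 to 15000, 0.560% at 15001 to 20000, 0.380% at 20001 to 25000 and 0.699% at 25001 to 27145. It was thus higher in every class below the IDR threshold than above it, with no steady course among those classes. The interval of the IDR peaks overlapped those at 5787 to 10000 (0.327 to 0.789), 15001 to 20000 (0.372 to 0.808) and 20001 to 25000 (0.229 to 0.593). The median signal of the 115 peaks was 56.2, beside 53.5 for all peaks below the threshold.

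**Figure D4:**
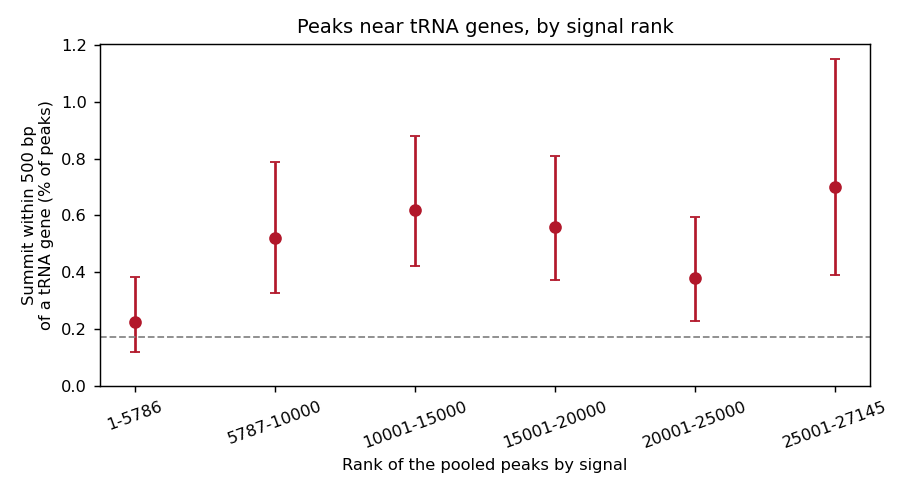
Share of pooled peaks with the summit within 500 bp of a tRNA gene (vertical axis, % of peaks) by rank of the peak's signal (horizontal axis); points are shares with exact binomial 95% intervals, and the dashed line is the share of bases, 0.174%. The highest class, ranks 1 to 5786, is lowest at 0.225%, and the other classes lie between 0.380% and 0.699%.

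The relaxed list gave the following highest genes among those with no IDR summit within 500 bp. A summit of signal 132 lay inside Ser-AGA-2-4, 69 bp from its 5′ end, at rank 5822, just below the IDR threshold. A peak of signal 131 had its summit inside Arg-TCT-1-1 and lay 223 bp upstream of its neighbour Met-CAT-1-1. A peak of signal 126 had its summit 227 bp downstream of Gly-GCC-1-13 and 404 bp from Trp-CCA-2-6, beyond both genes. That summit was closer, at 169 bp, to a TSS of the germ plasm gene tud. At Ser-AGA-2-4 the 3 replicate lists had summits at 24, 41 and 0 bp from the gene. At Arg-TCT-1-1 replicates 1 and 3 had a summit inside the gene, while the nearest of replicate 2 was 634 bp away.

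Another 13 tRNA genes had their nearest IDR summit 501 to 1000 bp away. The highest were Tyr-GTA-1-7, 671 bp from the peak of signal 1169 described above, and Val-TAC-1-1, 843 bp from a peak of signal 750 at 154 bp from a TSS of lama. His-GTG-1-2 lay 937 bp from the peak of signal 438 near His-GTG-1-3, and Leu-CAA-2-2 lay 602 bp from a peak of signal 310 whose nearest protein-coding TSS, of caps, was 15185 bp away. Met-CAT-1-1 and Arg-TCT-1-1 shared a peak of signal 293, at 881 and 599 bp, which lay 89 bp from a TSS of CG34228. In all, 22 IDR peaks lay within 1000 bp of a tRNA gene, and at 9 of them (40.9%, 20.7 to 63.6) a protein-coding TSS was closer.

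Near tRNA genes, as in the whole lists, a protein-coding TSS lay close to a larger share of the strong peaks than of the weak ones. A protein-coding TSS lay within 500 bp of 8 of the 13 IDR summits near tRNA genes (61.5%, 31.6 to 86.1), beside 43.2% of all IDR summits, which lies inside that interval. Among the 115 weaker peaks it was 14 (12.2%, 6.82 to 19.6), beside 23.1% of all peaks below the threshold. A protein-coding TSS was closer than the tRNA gene at 8 of the 115 (6.96%, 3.05 to 13.2), and 81 had none within 1000 bp. These peaks too were chosen for a tRNA gene within 500 bp, so the share of 8 has no background here.

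The same division was seen from the side of the genes. Of 80 tRNA genes with a protein-coding TSS within 1000 bp, 12 had an IDR summit within 500 bp (15%, 8.00 to 24.7), and of the 210 without one, 3 had (1.43%, 0.296 to 4.12). These intervals do not overlap, but they are too narrow, since genes of a locus can share a peak, and no test was made. Stretches of 73 bp in the same settings gave 10.8% and 2.64%, each inside the interval of the tRNA genes. With relaxed summits the shares were 66.3% (54.8 to 76.4) and 53.3% (46.3 to 60.2), beside 32.1% and 15% of stretches. The 3 genes with an IDR summit and no such TSS were Gln-TTG-2-1, Glu-TTC-1-5 and Lys-TTT-1-1.

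The share of loci near an IDR summit was alike for single genes and clusters, at 9.21%, 8.62% and 10% by rising size. A relaxed summit lay near a member of every large locus. An IDR summit lay within 500 bp of a member in 7 of 76 single-gene loci, 5 of 58 loci of 2 to 4 genes and 1 of 10 loci of 5 or more. Relaxed summits lay near a member in 35 of 76, 42 of 58 and 10 of 10 of them. A larger locus offers more bases for a summit, and no share was computed for other stretches of the same span. The counts of loci therefore have no background here. By genes the shares were 46.1%, 57.7% and 66.7%, and genes of a locus can share a peak. The 10 large loci held 72 genes, of which 48 had a relaxed summit within 500 bp.

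The largest loci differed in how many members were near a peak. At 3R:17617761-17631750, with 4 Ala, 3 Pro, 2 Thr and 2 Val genes, 9 of 11 genes had a relaxed summit within 500 bp, with a highest signal of 73. At 2R:6161535-6171759, in part within the ecdysone receptor gene EcR, with 4 Lys, 3 Arg, 3 Asn and 1 Ile genes, it was 4 of 11, with a highest signal of 77.3. The locus of 5 Glu and 2 iMet genes at 2R:19725620-19728958 had 6 of 7, and was the large locus with an IDR peak. The 5 Arg and 2 Ser genes at X:14014814-14017284 had 2 of 7.

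The remaining large loci showed the same spread. The 5 Ile and 2 Leu genes at 2R:13430282-13432794, in ATP8A, had 4 of 7 near a relaxed summit. All 6 Leu genes at 3L:8060214-8068290, some of them in Sarm, and all 6 Arg and Asn genes at 3R:8139533-8141042 were near one, as were 5 of 6 Cys and Lys genes at 3L:3095737-3097590 and 4 of 5 Gln genes at 2L:2009155-2013250. Only 2 of the 6 Glu genes at 3L:1397695-1401852 were. Among smaller loci, none of the 4 Lys genes at 3R:6819894-6823035 was near one, and all 4 His genes at 2R:12333926-12336489 were.

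The IDR summits were spread over isotypes. Of the 22 classes, 13 had a gene with an IDR summit within 500 bp: 2 genes in Asp, 2 in Gly and 1 each in Gln, Glu, His, Ile, Leu, Lys, Phe, Thr, Trp, Tyr and Val. No Ala, Arg, Asn, Cys, iMet, Met, Pro, SeC or Ser gene had one. Relaxed summits lay near genes of 21 classes, and the single SeC gene had none. In the 15 classes with at least 10 genes the relaxed share ran from 7 of 19 Lys genes (36.8%, 16.3 to 61.6) to 15 of 19 Glu genes (78.9%, 54.4 to 93.9). These intervals overlap, and genes of an isotype often share a locus and a peak.

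**Figure D5:**
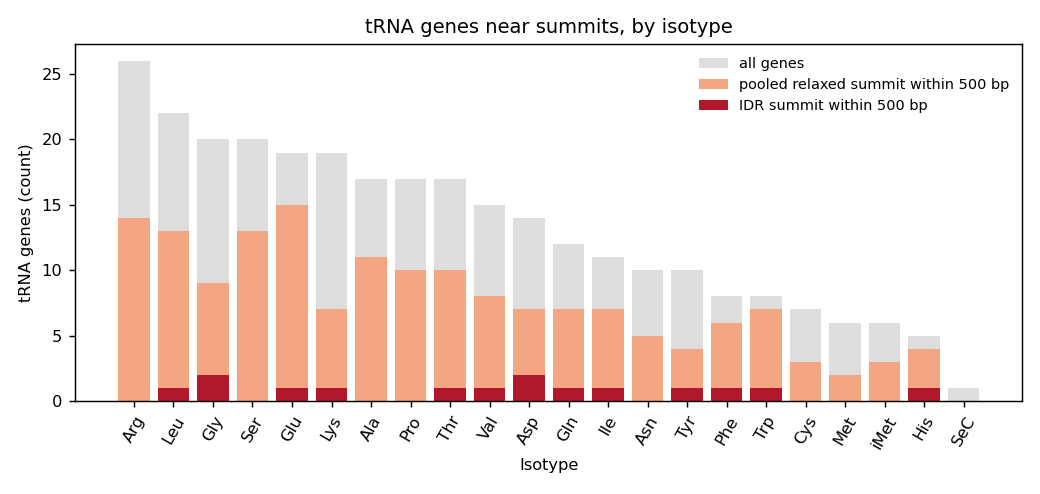
Number of tRNA genes (vertical axis) by isotype (horizontal axis); grey bars count all genes, and the orange and red bars drawn over them count those with a pooled relaxed and an IDR summit within 500 bp. The red bars reach 2 genes at most, in Asp and Gly, while orange covers 15 of 19 Glu genes and 7 of 19 Lys genes.

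Signals at the relaxed summits also differed within isotypes. Arg, the largest class, had 14 of 26 genes near a relaxed summit with signals of 38.2 to 131, and Ser had 13 of 20 with signals of 40.1 to 132. The 3 Cys genes near one had signals of 37.9 to 38.4, close to the lowest of the list, 37.8. Tyr held the strongest peak of all, at 1169, yet the median over its 4 genes near a relaxed summit was 38.6.

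The share of tRNA genes near a relaxed summit was lowest on the X, at 6 of 24 (25%, 9.77 to 46.7). It was 20 of 41 on 2L (48.8%, 32.9 to 64.9), 64 of 98 on 2R (65.3%, 55.0 to 74.6), 27 of 48 on 3L (56.3%, 41.2 to 70.5) and 48 of 79 on 3R (60.8%, 49.1 to 71.6). The interval of the X overlapped those of 2L and 3L. Stretches of the X had a summit in 19.0% of places, within the range of the other arms, 16.5% to 20.1%. The 24 genes of the X lie in 14 loci. IDR summits were near 3 genes on 2L, 5 on 2R, 0 on 3L, 5 on 3R and 2 on the X.

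Position in a host gene and the number of identical copies went with small differences at most. Of 134 tRNA genes overlapping a protein-coding gene, 76 had a relaxed summit within 500 bp (56.7%), as had 89 of the other 156 (57.1%). Of the 52 genes with a sequence found once, 27 had one (51.9%, 37.6 to 66.0) and 4 had an IDR summit (7.69%). Of the 238 with an identical copy, 138 had one (58.0%, 51.4 to 64.3) and 11 had an IDR summit (4.62%). The intervals overlap.

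Motifs were searched on both strands within 100 bp of each summit. The B box, GTTCGANNC, was found on the own strand of 160 of the 290 tRNA genes (55.2%), so this strict form does not find every tRNA gene. It was present at 3 of the 13 IDR summits near tRNA genes and at 26 of the 115 weaker ones (22.6%, 15.3 to 31.3), beside 1.49% of all IDR summits and 1.43% of all peaks below the threshold. At 25 of these 26 weaker peaks a match lay inside an annotated tRNA gene, so there it goes with the distance to the gene. Of the 3 IDR summits, the one at Gly-TCC-1-2 had its match inside the gene, and the other 2 had theirs outside all annotated tRNA genes.

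The motifs of proteins known at fly promoters and boundaries were as follows. CGATA, the core of BEAF-32 sites, was at 4 of 13 IDR summits near tRNA genes (30.8%, 9.09 to 61.4), beside 27.1% of all IDR summits. It was at 14 of the 115 weaker peaks (12.2%, 6.82 to 19.6), beside 23.2% of all peaks below the threshold. TATCGATA, the DREF site, which contains CGATA, was at 2 of 13 and at none of the 115, beside 3.23% and 1.96%. GAGAG, bound by GAGA factor, was at 3 of 13 and at 29 of 115 (25.2%), beside 20.9% and 22.3%. The E-box CACGTG was at 0 of 13 and at 3 of 115, beside 1.71% and 2.14%. TTTTT, the letters of a Pol III terminator and frequent in the fly genome, was at 11 of 13 and at 100 of 115 (87.0%), beside 82.9% and 73.4%.

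Other small RNA genes were compared by the same measure. At 500 bp the IDR share was 5.17% in tRNA genes, 5.58% in 269 small nucleolar RNA genes and 12.5% in 32 small nuclear RNA genes, the last from 4 genes. The relaxed share was 56.9% in tRNA genes, 21.9% (17.1 to 27.4) in small nucleolar RNA genes and 37.5% (21.1 to 56.3) in small nuclear RNA genes. A relaxed summit lay inside 28 of 290 tRNA genes (9.66%, 6.51 to 13.7), 8 of 269 small nucleolar RNA genes (2.97%, 1.29 to 5.78) and 8 of 32 small nuclear RNA genes (25%, 11.5 to 43.4). In relaxed peaks at 500 bp the intervals of tRNA and small nucleolar RNA genes were apart, with the tRNA genes higher. The intervals of tRNA and small nuclear RNA genes overlapped, both at 500 bp and inside the gene. In IDR peaks the intervals of tRNA and small nucleolar RNA genes overlapped at 500 bp. At 1000 bp the small nucleolar RNA genes were higher, at 23.4% (18.5 to 28.9) against 9.66% (6.51 to 13.7), with intervals apart. Neighbouring genes can share a peak, so all these intervals are too narrow, and no test was made.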

How the data were processed

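The ChIP-seq peak lists of 3 biological replicates (1 group), called by the authors on dm6 against a control alignment that was not used here, were taken as deposited: 3 relaxed replicate lists, 1 relaxed list of pooled reads and 1 list thresholded by IDR. Per the labels, chromatin was sonicated to 200 to 800 bp. Which caller and which IDR threshold they used is not given in the sources used here. Column 7 of the deposited lists holds the signal value of each peak, column 9 the −log10 of the q-value (not used to rank), and column 10 an other kind of value, the offset of the summit from the peak's start in bp. The IDR peaks were the 5786 pooled peaks of highest signal. Depth is unknown, as peak lists carry no read counts. Lists on dm3 were not used.

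Distances ran from the summit to the nearest base of a tRNA gene (0 inside) on 6 arms. Shares carry exact binomial (Clopper-Pearson) 95% intervals, and no test was made. Backgrounds were protein-coding genes by any TSS and stretches of the median tRNA gene length, 73 bp, at every base. For replicates, a pooled peak counted as found where a peak of the replicate list spanned its summit, whole or reduced to its 5786 highest peaks. Columns of other series numbered 0. The distance and coverage functions were tested on simulated data, with 0 mismatches in 2440 checks. Python 3.11.15, numpy 2.4.6, pandas 2.3.3 and scipy 1.17.1 were used.

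The members, lists and alternatives were chosen with earlier results of these data known. The genes named were all tRNA genes with an IDR summit within 500 bp, the 5 of highest signal (ties kept) with one at 501 to 1000 bp, the 5 of highest signal with only a relaxed summit within 500 bp, the largest loci, and the members of other lists with a summit, or the 5 highest where over 10 had one. The alternatives varied the peaks used, the window, the reference point, the locus gap, the TSSs counted and the replicates.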

Additional observations from a re-analysis of the deposited data

How the results depend on the processing

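Of 48 alternative values, 40 stayed within 1.5 times the reported count and 8 moved further. The 15 tRNA genes with an IDR summit within 500 bp became 10 to 19. With IDR peaks of at least the median signal only, both the loci and the distinct peaks within 500 bp fell from 13 to 8. The count of 165 tRNA genes with a relaxed summit within 500 bp depended on the peaks used: with peaks kept where both other replicates had them, leaving out each replicate in turn gave 56 to 100 genes. The highest of these was without replicate 2, the lowest without replicate 3, and without replicate 1 it was 62. Among alternatives added after seeing the data, it was 48 with peaks found in all 3 whole replicate lists, 50 with the highest 10000 peaks and 90 with the highest 15000. Each of these uses fewer peaks, and the ratio to the 73 bp stretches was 1.99, 2.37 and 2.92, and 2.13, 3.20 and 2.04 without replicates 1, 2 and 3, against 3.06. No paired analysis was possible because the result comes from no test and there was 1 group. The unknown depth limits what the absence of a peak shows.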

Other observations

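Of 10 other genes known to be transcribed by Pol III (U6, U6atac, 7SK, 7SL, RNase P and RNase MRP RNA genes), 2 had an IDR summit within 500 bp and 6 a relaxed one. Of the 73 bp stretches, 4.34% had an IDR summit and 18.6% a relaxed summit within 500 bp. These genes are longer than the stretches, and they are too few for a comparison of shares. The U6 spliceosomal RNA genes U6:96Ab and U6:96Ac shared an IDR peak of signal 392, at 320 and 97 bp. Relaxed summits lay inside 7SKa, whose RNA holds back transcription elongation, at a signal of 90.0, and inside RNaseMRP:RNA, at 42.5. U6:96Aa and RNaseP:RNA had relaxed summits at 81 and 18 bp, of signals 48.5 and 50.2. Of 96 genes for 5S ribosomal RNA, which form a repeated array, 0 had an IDR summit and 1 a relaxed one, beside the same shares of stretches. How reads in identical copies were placed is not given in the sources used here.

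Protein-coding genes of the Pol III machinery and of tRNA processing were also examined. Of 47 listed symbols 43 were in the annotation, and 15 had an IDR summit within 500 bp of a TSS (34.9%, 21.0 to 50.9). The share of all protein-coding genes, 22.6%, lies inside that interval. Relaxed summits were near 33 (76.7%, 61.4 to 88.2), beside 49.4%. The 5 highest were Tcs5, of the complex that makes a threonyl-carbamoyl modification of tRNA, at a signal of 2767; the TFIIIB subunits Bdp1 at 1202 and Brf at 882; the Pol III subunit Polr3E at 592; and the RNase P subunit Rpp14a at 486. The list was drawn up with earlier results of these data known, and its share was not tested.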
